A study of Mus musculus with 12 samples.

Results

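Calb2, Calb1 and Pvalb encode calretinin, calbindin and parvalbumin, the cytosolic calcium buffers that neuroanatomists use most often to tell neuron classes apart. These 3 genes, of 22609 listed, were followed through RNA-seq libraries of mouse sensory neuron fractions. They were picked by symbol, with their levels in trigeminal ganglion (TG) and dorsal root ganglion (DRG) libraries already known. Their TG against DRG values are therefore a description here and carry no p-value or interval. The standard errors given with them come from the fitted model and are not to be read as a test, since the genes were picked on this contrast. The comparison between females and males was not used to pick them and was tested.

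The libraries came from naive wild-type mice of the strain C57BL, 3 to 4 months old by the labels, while the study's methods name C57BL/6J and give a younger range. Both ganglia were dissociated and spun through a Percoll density gradient, which enriches sensory neurons without making them pure. There were 12 libraries in 4 groups of 3, DRG and TG of each sex, and by the study's methods the females were in estrous and the DRG were lumbar. The design text speaks of 3 males and 3 females, so a TG and a DRG library may share an animal, but no label says which do. Whether ganglia of several animals were pooled is not given in the sources used here, so p-values measure only the spread between these libraries. A single library holds RNA of many cells, and fewer cells of a class cannot be told apart from less of the transcript per cell.

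All 3 proteins bind calcium through EF-hand motifs, helix-loop-helix folds that hold the ion in the loop. Parvalbumin binds slowly and shapes the decay of calcium transients, while calbindin and calretinin take up calcium faster and can also change shape on binding, as sensors do. In sensory ganglia parvalbumin is best known from proprioceptors, the large neurons that serve muscle spindles and tendon organs, and calretinin and calbindin are found in subsets of medium to large myelinated neurons, some of them mechanoreceptors. The cell bodies of spindle afferents from the jaw muscles lie for the most part inside the brainstem, in the mesencephalic trigeminal nucleus, and not in the TG.

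On mouse build mm9, Calb2 (ENSMUSG00000003657.7) lies on the minus strand at chr8:112661402-112692110, with 1742 bases of exon and a GC content of 53.1%. Calb1 (ENSMUSG00000028222.2) lies on the plus strand at chr4:15808411-15835211 and is the longest and most AT-rich of the set, with 4846 exonic bases and 36.5% GC. Pvalb (ENSMUSG00000005716.10) lies on the minus strand at chr15:78021544-78036830 and is the shortest, with 1041 exonic bases and 49.8% GC. All are protein coding, no annotated gene overlaps their exons, and 100% of the exonic 50-base windows of each gene occur once in the genome, so reads of the length sequenced are not shared with a paralog.

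The libraries held 7511765 to 15396090 reads in genes, and a floor of 3 reads corresponds to 0.207 to 0.357 CPM (each library's reads of a gene relative to its total, scaled by TMM factors). Levels between genes are compared as RPKM, here CPM per kilobase of exon. The 4 male libraries numbered 1 and 2 stood apart from the other 8 in the level of short transcripts. The mean log2 CPM of 629 genes with under 1000 exonic bases, minus that of 6644 genes with over 4000, was -1.41 and -1.32 in male DRG 1 and 2 and -1.73 and -1.66 in male TG 1 and 2. It lay between -2.59 and -2.15 in the other libraries, male DRG 3 and male TG 3 included. Within each ganglion the same 4 libraries had the highest summed level of 10 sensory neuron markers, and they had the lowest summed level of 4 fibroblast markers (Col1a1, Col1a2, Dcn, Pdgfra), 446.9 to 752.5 CPM against 839.4 to 1458.7 CPM elsewhere. Sex differences are therefore also given without these 4 libraries, an alternative chosen after seeing the data.

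The fractions carried the markers of their label. The summed level of 10 sensory neuron markers (among them Tubb3, Uchl1 and Calca) ran from 6020 to 11006 CPM in DRG and from 4847 to 7624 CPM in TG. Glial RNA was present as well, with 4 satellite glia markers (Fabp7, Kcnj10, Glul, Apoe) at a sum of 2256 to 5264 CPM in DRG and 3453 to 6158 CPM in TG. Since parvalbumin is also a protein of fast muscle, and all 3 buffers mark central neurons, markers of those tissues were read out. The sum of 5 skeletal muscle markers (Acta1, Ckm, Myh4, Myh2, Tnnt3) did not pass 2.80 CPM in DRG and 2.33 CPM in TG. That of 5 central neuron markers, all of inhibitory neurons, did not pass 4.16 and 2.19 CPM. Of these 5, Gad2, Slc32a1 and Pcp2 had 0 reads in all 12 libraries and Gad1 gave nearly all of the sum, up to 35 reads in a library. Markers of excitatory central neurons were not on the list. Of 6 pituitary markers, Cga, Tshb and Lhb had 0 reads throughout, and the sum of the list, from Gh, Prl and Pomc, reached 1.31 CPM in DRG and 2.90 CPM in TG.

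Calretinin mRNA was abundant in TG and scarce, but present, in DRG. In TG, Calb2 stood at 47.7, 71.0 and 72.5 CPM in the 3 female libraries and at 122.0, 162.0 and 53.8 CPM in the 3 male libraries. In DRG it stood at 3.93, 1.42 and 5.59 CPM in females and at 9.07, 10.3 and 2.29 CPM in males. Every TG library was above every DRG library. Behind the lowest DRG value were 16 reads, so the gene was above the floor in each DRG library. The mean was 88.2 ± 44.6 CPM (SD, n = 6) in TG and 5.44 ± 3.62 CPM (SD, n = 6) in DRG. The log2 difference, TG over DRG, was 4.05 ± 0.39 (SE), a 16.5-fold higher level. It was 4.12 ± 0.56 (SE, n = 3 against 3) in females and 3.97 ± 0.55 (SE, n = 3 against 3) in males. Of 14829 genes tested, 0.998% had all 6 TG libraries above all 6 DRG libraries, 1.36% did not overlap in either direction, and 0.769% were called by an adjusted p under 0.05 with a fold above 2. Calb2 was picked on this contrast, so nothing is read from its place in these shares.

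Parvalbumin mRNA ran the other way, with wide spread. Pvalb stood at 80.8, 136.6 and 38.7 CPM in female DRG and at 269.8, 193.8 and 62.4 CPM in male DRG. In TG it stood at 53.2, 44.6 and 42.3 CPM in females and at 75.9, 95.1 and 38.5 CPM in males. The ganglia overlapped: female DRG 1 and both DRG libraries numbered 3 were within the TG range. The means were 130.3 ± 88.3 CPM in DRG and 58.2 ± 22.5 CPM in TG (SD, n = 6 each). The log2 difference, TG over DRG, was -1.10 ± 0.33 (SE), a 2.14-fold lower level in TG. In females alone it was -0.87 ± 0.47 (SE, n = 3 against 3). In males alone it was -1.33 ± 0.47 (SE, n = 3 against 3). Without the 4 male libraries that stood apart it was -0.78.

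Calbindin mRNA had a higher mean in TG, and its mean in DRG rested on how 3 female libraries were divided. Calb1 stood at 7.26, 11.03 and 49.1 CPM in female DRG and at 62.3, 59.7 and 53.5 CPM in male DRG. In TG it stood at 49.98, 38.8 and 53.7 CPM in females and at 81.0, 109.1 and 61.2 CPM in males. Female DRG 1 and 2 lay below all other libraries, while female DRG 3 and the male DRG libraries were inside the TG range. The means were 40.5 ± 24.8 CPM in DRG and 65.6 ± 25.5 CPM in TG (SD, n = 6 each). The log2 difference, TG over DRG, was 0.80 ± 0.34 (SE), a 1.74-fold higher level in TG. Without female DRG 3 it was 1.45, and without female DRG 1 it was 0.59. The log2 difference was 1.07 ± 0.48 in females alone and 0.52 ± 0.48 in males alone (SE, n = 3 against 3 each).

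**Figure D1:**
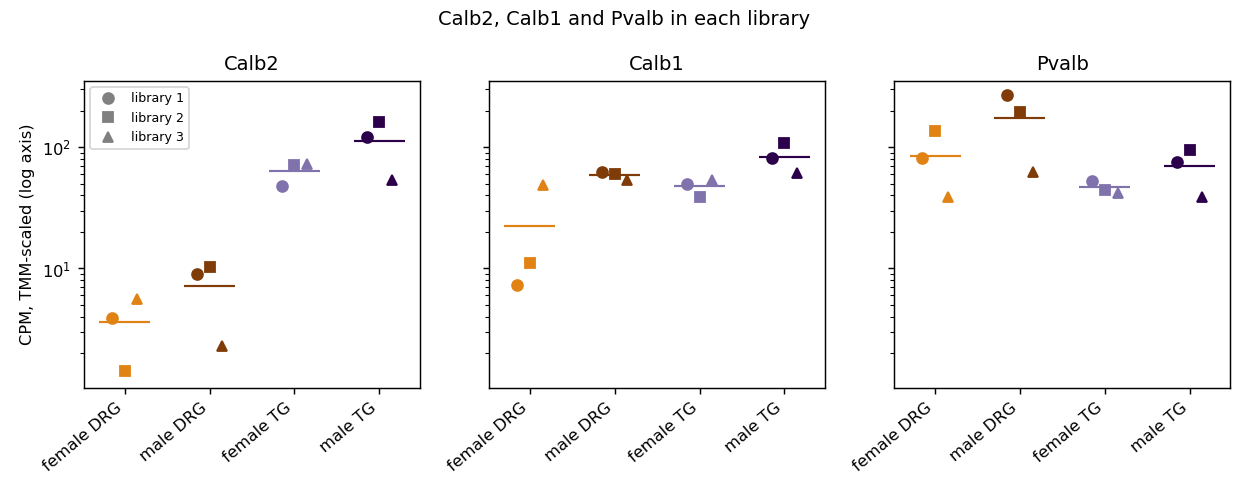
TMM-scaled CPM (log axis) of Calb2, Calb1 and Pvalb in each of the 12 libraries, by sex and ganglion, with a marker shape for the library number and a line at each group mean (n = 3). Calb2 in TG (47.7 to 162.0 CPM) does not overlap with DRG (1.42 to 10.3 CPM), whereas Calb1 and Pvalb overlap between the ganglia.

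Per length, the order of the genes differed between the ganglia. In DRG, Pvalb was highest at 125.2 ± 84.8 RPKM, followed by Calb1 at 8.36 ± 5.11 and Calb2 at 3.12 ± 2.08 RPKM (SD, n = 6 each). Pvalb was above both other genes in every DRG library, but Calb1 and Calb2 overlapped, and in female DRG 1 Calb2 was the higher of them, at 2.25 against 1.497 RPKM. In TG, Pvalb at 56.0 ± 21.6 RPKM and Calb2 at 50.6 ± 25.6 RPKM did not differ beyond their spread. Calb1, at 13.5 ± 5.27 RPKM, was the lowest of the set in every TG library (SD, n = 6 each).

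The summed level of the set overlapped between the ganglia, while the shares of Pvalb and Calb2 in it did not. The sum of the 3 genes was 136.7 ± 88.3 RPKM in DRG, from 50.5 to 277.2, and 120.1 ± 51.3 RPKM in TG, from 80.5 to 206.9 (SD, n = 6 each). Parvalbumin mRNA made up 89.0 ± 9.12% of that sum in DRG and 47.3 ± 5.17% in TG. Calretinin mRNA made up 2.72 ± 1.96% in DRG and 41.2 ± 5.64% in TG. Calbindin mRNA had a share of 8.26 ± 7.63% in DRG, from 1.69% to 20.1%, and of 11.5 ± 2.31% in TG, from 8.75% to 15.7%, and the ganglia overlapped.

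Within TG the make-up hardly moved between libraries, although the sum itself did. In 5 of 6 TG libraries calretinin mRNA held between 38.3% and 44.9%, and female TG 1 was the lowest with 30.8%. The log2 ratio of Pvalb to Calb1, per length, had an SD of 0.31 in TG (1.55 to 2.42) and of 1.63 in DRG (1.87 to 5.85). Within DRG, the libraries numbered 3 had the lowest parvalbumin share, at 73.6% in the female and 82.9% in the male library, and the highest calbindin share, at 20.1% and 15.3%. In the other 4 DRG libraries the parvalbumin share ran from 91.1% to 97.7%. The libraries numbered 3 were also the DRG libraries with the lowest summed satellite glia markers, at 2256.4 and 2613.3 CPM against 4664.5 to 5263.7 CPM in the others, and the part of this in the shares was not tested.

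**Figure D2:**
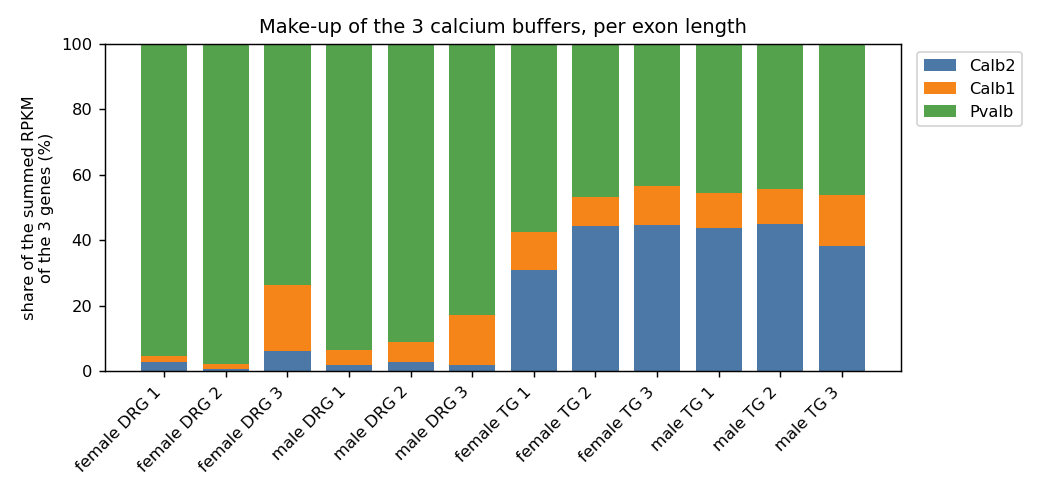
Share (%) of each gene in the summed RPKM of Calb2, Calb1 and Pvalb, 1 stacked bar per library. Pvalb makes up 73.6% to 97.7% of each DRG bar and 43.5% to 57.5% of each TG bar, and Calb2 0.608% to 6.35% and 30.8% to 44.9%.

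Across the 6 libraries of a ganglion the genes moved together in TG more than in DRG, as a description without a test. On log2 CPM, Pearson's r in TG was 0.80 for Calb2 with Calb1, 0.86 for Calb2 with Pvalb and 0.82 for Calb1 with Pvalb. In DRG the same pairs had r of 0.58, 0.38 and 0.12. With each of the 4 groups of sex and ganglion centred on its own mean, r over the 12 libraries was 0.44, 0.33 and -0.27. The points share their library and its scaling, and in TG the 2 highest libraries of every pair were male TG 1 and 2, which stood apart in short transcripts.

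All 3 genes had a lower mean in females than in males in both ganglia, and no sex difference passed the adjusted threshold. In TG, Calb2 averaged 63.7 ± 13.9 CPM in females and 112.6 ± 54.7 CPM in males, Calb1 47.5 ± 7.74 and 83.8 ± 24.1 CPM, and Pvalb 46.7 ± 5.74 and 69.8 ± 28.8 CPM (SD, n = 3 each). The log2 differences, female over male, were -0.77 ± 0.36 for Calb2 (adjusted p = 0.250), -0.77 ± 0.27 for Calb1 (adjusted p = 0.174) and -0.53 ± 0.32 for Pvalb (SE, adjusted p = 0.353), by edgeR's quasi-likelihood test over 14009 genes. By that test 0.0357% of genes, sex-linked genes included, had an adjusted p under 0.05, and 20.7% had an unadjusted p under 0.05. The unadjusted p of the same edgeR test was 0.0147 for Calb1, 0.0546 for Calb2 and 0.122 for Pvalb. The female libraries were all below the male libraries for Calb1, as they were for 12.6% of genes. The study's criteria (fold above 2, unadjusted p under 0.05 and a level above 1 in the higher sex, here in CPM) were met by 7.41% of genes in TG and by none of the set.

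In DRG the spread was wider. Calb2 averaged 3.65 ± 2.10 CPM in females and 7.22 ± 4.32 CPM in males, Calb1 22.5 ± 23.2 and 58.5 ± 4.53 CPM, and Pvalb 85.4 ± 49.1 and 175.3 ± 104.9 CPM (SD, n = 3 each). The log2 differences, female over male, were -0.96 ± 0.85 for Calb2 (adjusted p = 0.710), -1.38 ± 0.56 for Calb1 (adjusted p = 0.375) and -1.02 ± 0.50 for Pvalb (SE, adjusted p = 0.447), over 13963 genes of which 0.0358% had an adjusted p under 0.05 and 11.8% an unadjusted one. The unadjusted p of this edgeR test was 0.278 for Calb2, 0.0300 for Calb1 and 0.0652 for Pvalb. Calb1 met the study's criteria here, with a 2.59-fold lower level in females, as did 4.97% of genes, and its female libraries were again all below the male ones, as for 9.63% of genes.

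The fit of sex over both ganglia has more libraries behind its spread, but it takes each library as independent. A TG and a DRG library may share an animal, and the p-values for sex in this fit could then be too small. With both ganglia in 1 fit, Calb1 came nearest to the threshold. Its log2 difference, female over male, was -1.10 ± 0.34 (SE, adjusted p = 0.0544). That of Calb2 was -0.90 ± 0.36 (SE, adjusted p = 0.120) and that of Pvalb -0.81 ± 0.33 (SE, adjusted p = 0.126). The test called 7.88% of 14829 genes at an adjusted p under 0.05, 5.5% lower and 2.39% higher in females. In each ganglion the 3 female libraries were all below the 3 male libraries for Calb1 alone of the set, a pattern that 3.38% of 13568 genes tested in both ganglia shared. The sex difference did not itself differ detectably between TG and DRG: the interaction was 0.16 for Calb2, 0.55 for Calb1 and 0.46 for Pvalb on the log2 scale. Their standard errors were 0.71, 0.67 and 0.66, and the adjusted p was 0.9998 for each. The 95% intervals were wide, -1.33 to 1.64 for Calb2, -0.86 to 1.97 for Calb1 and -0.92 to 1.83 for Pvalb. No gene passed that interaction test by the adjusted p of edgeR or of DESeq2, and 1.97% had an unadjusted p under 0.05.

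For Calb2 and Pvalb the direction rested on the 4 male libraries that stood apart. In TG the third male library had 53.8 CPM of Calb2 and 38.5 CPM of Pvalb, inside or below the female range, and in DRG it had 2.29 and 62.4 CPM, inside the female range. Without male libraries 1 and 2 of both ganglia, the log2 difference over both ganglia, female over male, turned to 0.47 for Calb2 (adjusted p = 0.820) and to 0.39 for Pvalb (adjusted p = 0.839), with 1 male library left per ganglion that was taken to vary like the others. Calb1 stayed lower in females, at -0.79 (adjusted p = 0.785). A correction of each library for gene GC content and length moved Pvalb from -0.81 to -0.24 over both ganglia and from -0.53 to 0.01 in TG. The same correction moved Calb1 from -0.77 to -0.33 in TG but left it at -1.46 in DRG. Calb2 moved little, from -0.90 to -0.74 over both ganglia.

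**Figure D3:**
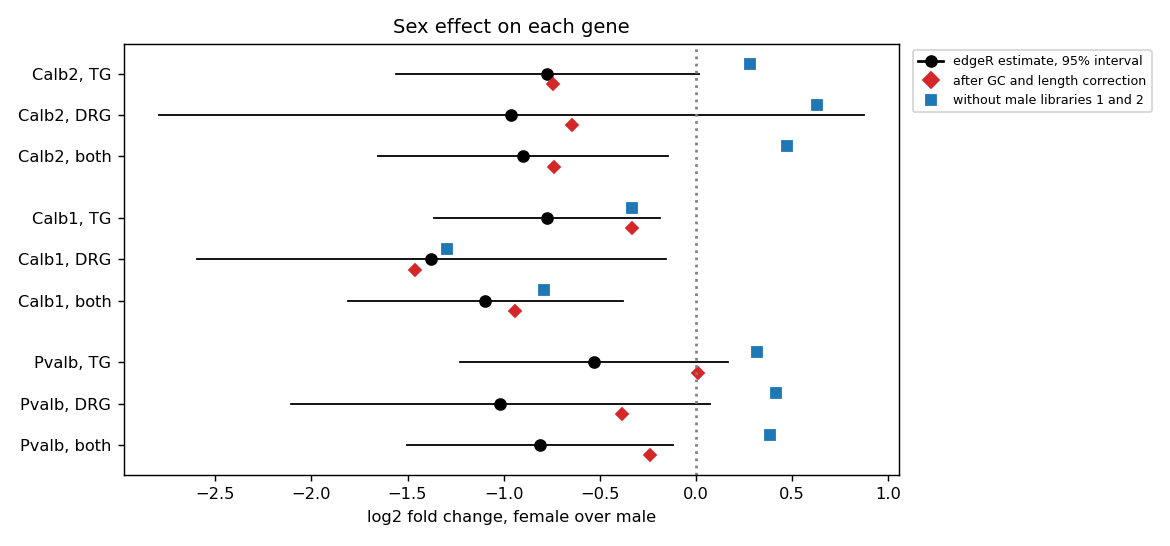
Log2 fold change, female over male, of each gene in TG, DRG and both ganglia together (black points, with 95% intervals), after correction for GC content and length (red diamonds), and without male libraries 1 and 2 of both ganglia (blue squares). Over both ganglia the blue squares of Calb2 and Pvalb lie at 0.47 and 0.39, on the other side of 0 from the estimates of -0.90 and -0.81.

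Single female libraries also decided how far Calb1 differed. Without female DRG 3 its log2 difference in DRG was -2.67 (adjusted p = 0.0328) and without female DRG 1 it was -0.96. In TG it was -0.92 without female TG 3 (adjusted p = 0.0337) and -0.54 without male TG 2. Over both ganglia the adjusted p of Calb1 crossed the threshold without female DRG 3 (0.000624), without female TG 3 (0.0420) and without male TG 3 (0.0439). Calb2 crossed it without female DRG 3 (0.0459) or male DRG 3 (0.0351), and Pvalb without male DRG 3 (0.0338).

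The make-up of the set did not differ detectably between the sexes. The log2 ratio per length, female minus male averaged over the ganglia, was 0.52 for Calb2 to Calb1, 0.08 for Pvalb to Calb2 and 0.61 for Pvalb to Calb1. In a two-sided exact permutation test over the 400 splits of sex within ganglion, the p-values were 0.415, 0.865 and 0.395, and 0.623, 0.865 and 0.623 after Benjamini-Hochberg adjustment over the 3 ratios. A ratio takes out what both its genes share, such as the scaling of a library. Without male libraries 1 and 2 of both ganglia the ratios were 1.41, -0.07 and 1.34, with exact permutation p-values of 0.188, 0.938 and 0.375 over 16 splits, where the smallest p possible is 0.0625.

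**Figure D4:**
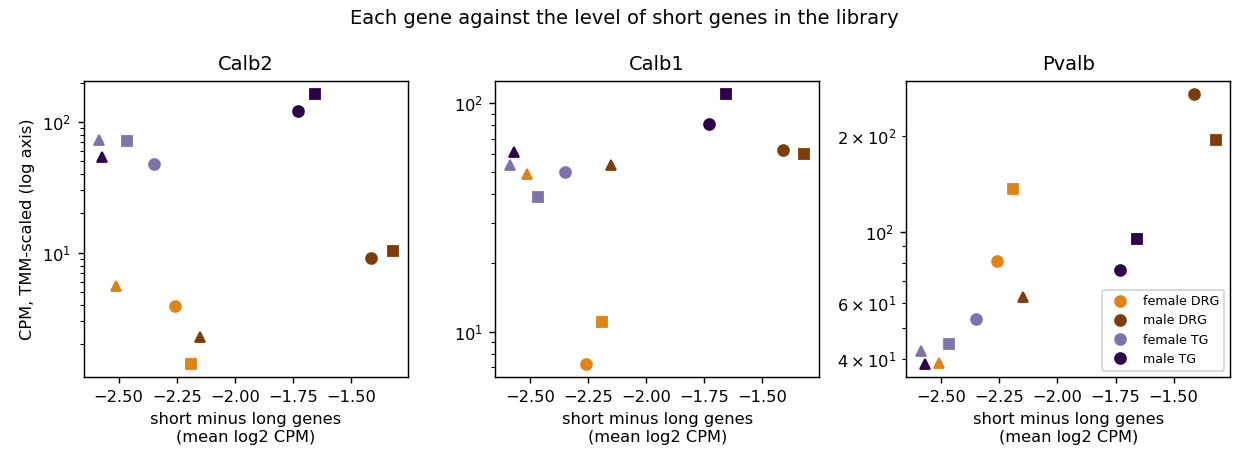
TMM-scaled CPM (log axis) of each gene in the 12 libraries against the level of short transcripts, the mean log2 CPM of 629 genes under 1000 exonic bases minus that of 6644 genes over 4000. The 4 male libraries at -1.73 to -1.32 hold the 2 highest values of each ganglion for all 3 genes, and the other 8 libraries lie at -2.59 to -2.15.

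Beyond this set, genes of calcium buffering, sensing and transport were read out from lists. The lists were drawn up with earlier results of these data known, so their shares of calls are a description and no test of these genes as a set. Of 106 such genes in the files, 90 passed the filter on low counts, and 5 of them (5.56%) were called between the ganglia, against 0.769% of all genes tested. Of the 5, 3 were higher in TG and 2 higher in DRG, directions that 0.479% and 0.29% of all genes had. The median log2 difference of the 90 was -0.01, against -0.01 over all genes tested. The other EF-hand buffers were scarce in both ganglia: Scgn (secretagogin) had 3.75 ± 3.31 CPM in DRG and 4.91 ± 1.78 CPM in TG (SD, n = 6 each, adjusted p = 0.937), S100g was too low to test, and Ocm (oncomodulin), the other parvalbumin, had 0 reads in every library.

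Among the sensors and transporters, Hpca (hippocalcin, a neuronal calcium sensor that moves to membranes on calcium binding) was higher in TG, at 45.9 ± 9.34 CPM against 13.6 ± 6.57 CPM in DRG, a log2 difference of 1.76 ± 0.35 (SE, adjusted p = 0.0172). It was the 1 gene called of 17 neuronal calcium sensors tested, whose median was 0.22, and no Hpca value in TG overlapped with DRG. Of 14 pumps and exchangers, Atp2b2 (the plasma membrane calcium pump PMCA2) and Slc24a2 (the potassium-dependent sodium/calcium exchanger NCKX2) rose in TG, and the median of the list was 0.16. Atp2b2 had 263.4 ± 72.3 against 120.4 ± 22.8 CPM (log2 difference 1.12 ± 0.20, adjusted p = 0.00525). Slc24a2 had 1147 ± 213 against 552.7 ± 71.4 CPM (log2 difference 1.04 ± 0.16, adjusted p = 0.00142). Neither gene overlapped between the ganglia. The exchangers Slc8a1 (0.99, adjusted p = 0.00483) and Slc24a3 (0.96, adjusted p = 0.0340) passed the adjusted p with a fold under 2. All of these export calcium from the cytosol. The highest pumps per length were Atp2a2, which fills the endoplasmic reticulum (68.4 ± 9.72 RPKM in DRG, 87.6 ± 17.5 in TG), and Atp2c1 of the Golgi (62.7 ± 10.9 and 58.9 ± 16.2 RPKM), and neither was called.

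On the DRG side, the calls were Calml4 (calmodulin-like 4; log2 difference -1.49 ± 0.34, adjusted p = 0.0437) and S100a11 (an S100 protein; -1.15 ± 0.27, adjusted p = 0.0447). Both were lost under most alternatives: of 22, Calml4 was called in 10 and S100a11 in 8. Hpca and Atp2b2 were each called in 19, and Slc24a2 in 17. With the correction for gene GC content and length alone, Hpca stayed called, while Atp2b2, Slc24a2, Calml4 and S100a11 were lost. Without the male libraries numbered 1 and 2 no gene of these lists was called, with 8 libraries left.

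Abundant calcium sensors were not called. The calmodulin genes Calm2 and Calm3 had 767.5 ± 334.5 and 269 ± 85.8 RPKM in DRG and 530 ± 261 and 271 ± 56.8 RPKM in TG, each above the mean of Pvalb. The leading S100 genes were S100a6 (1511 ± 629 in DRG and 925 ± 301 RPKM in TG), S100a10 (1151 ± 624 and 656 ± 313 RPKM) and S100b, a glial protein in ganglia (484 ± 224 and 489 ± 240 RPKM). None of these was called, and the median of 11 S100 genes tested was -0.67. Of the secretory pathway EF-hand genes (9 tested, median 0.03; highest Sparc, Sparcl1 and Sdf4), the store and mitochondrial uptake genes (20 tested, median 0.09; highest Canx, Vdac1 and Calr) and the other EF-hand sensors and enzymes (14 tested, median -0.12; highest Ppp3r1, Pef1 and Sri), no member was called.

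**Figure D5:**
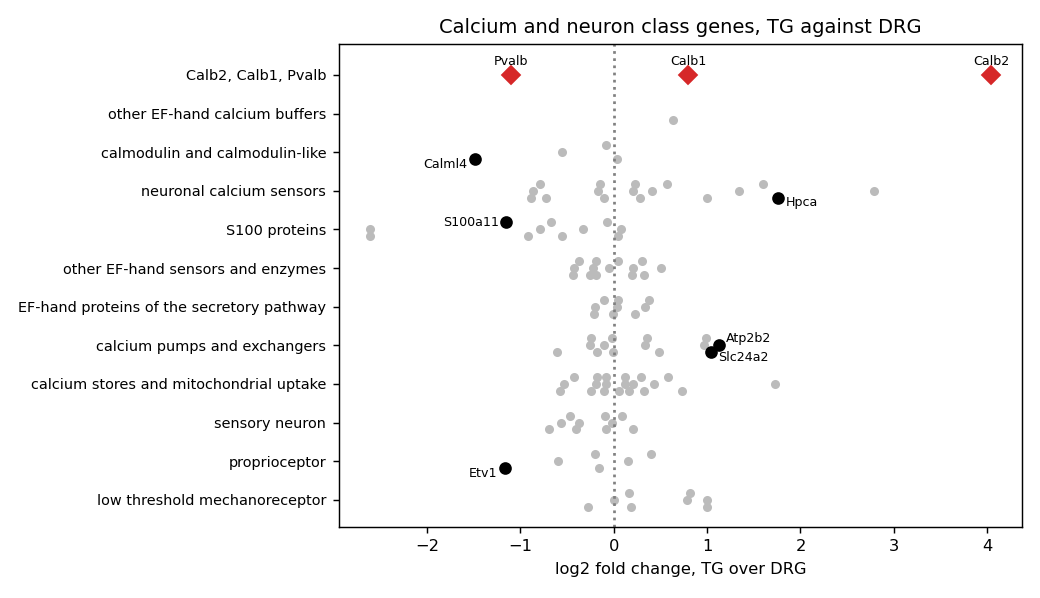
Log2 fold change, TG over DRG, of each tested gene of the calcium and neuron class lists (grey points, black and named where called at an adjusted p under 0.05 with a fold above 2), with Calb2, Calb1 and Pvalb on top (red diamonds). The 3 buffers lie at 4.05, 0.80 and -1.10, the called genes run from -1.49 (Calml4) to 1.76 (Hpca), and vertical offsets only separate points.

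The classes of neuron known to hold these buffers were also read out, from lists drawn up with the same knowledge. Of 6 proprioceptor genes tested, 1 was called: Etv1, a transcription factor of proprioceptor differentiation, at 69.3 ± 6.51 CPM in DRG and 31.0 ± 6.20 CPM in TG (SD, n = 6 each; log2 difference -1.16 ± 0.19, adjusted p = 0.00255), with no overlap between the ganglia. It was called in 21 of 22 alternatives and lost without the male libraries numbered 1 and 2. Ntrk3, the neurotrophin-3 receptor, had 124.8 ± 17.8 and 108.8 ± 16.5 CPM (-0.20, adjusted p = 0.885) and Spp1 143.9 ± 46.1 and 127.0 ± 26.0 CPM (-0.16, adjusted p = 0.930). Runx3, a defining factor of the class, was near the floor with 1.61 ± 1.17 and 1.71 ± 1.35 CPM. The median of the 6 genes was -0.18.

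Of 8 low threshold mechanoreceptor genes tested none was called, and the median was 0.48. A positive log2 difference was found for 7 of the 8, and for 7261 of all 14829 genes tested. Ret, the GDNF family co-receptor, passed the adjusted p with a fold under 2 (110.9 ± 27.7 RPKM in TG and 64.5 ± 11.6 RPKM in DRG; 0.78, adjusted p = 0.0307). Nefh, the heavy neurofilament of large myelinated neurons, had 77.1 ± 17.0 and 67.9 ± 11.5 RPKM (0.18, adjusted p = 0.930). Fam38b, the touch channel now called Piezo2, had 37.0 ± 9.49 and 36.8 ± 7.15 RPKM (0.00, adjusted p = 0.9998). None of the 10 general sensory neuron markers was called, with a median of -0.24, and the most abundant per length were Tubb3, Uchl1 and Calca.

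None of the markers of satellite glia, macrophages, endothelium or fibroblasts was called between the ganglia, 4 genes each (for the last 3 Cd68, Csf1r, Aif1 and Emr1; Pecam1, Cdh5, Cldn5 and Kdr; Col1a1, Col1a2, Dcn and Pdgfra), with medians from -0.41 (fibroblast) to 0.39 (macrophage). Between the sexes some did move in the fit over both ganglia, which takes libraries that may share an animal as independent. Csf1r of macrophages (log2 female over male 1.28, adjusted p = 0.0230), Cdh5 of endothelium (1.18, adjusted p = 0.0229) and Col1a2 of fibroblasts (1.17, adjusted p = 0.0274) were higher in females. Fabp7 of satellite glia was lower (-0.81, adjusted p = 0.0302), unlike the median of its list (0.06). Without male libraries 1 and 2 of both ganglia none of these 4 passed, at 0.96, 0.75, 0.91 and -0.33 (adjusted p from 0.785 to 0.810), and male DRG 3 and male TG 3 lay within the female range of the summed macrophage, endothelium and fibroblast markers. The part of these cells in the sex values of the buffers was not tested. Among the 90 calcium genes, 11 passed the adjusted p in that comparison, 7 lower and 4 higher in females, against 7.88% of all genes. Lower in females were Calm2 (-1.11, adjusted p = 0.0174), S100a10 (-1.06, adjusted p = 0.0222) and S100b (-1.08, adjusted p = 0.0229), beside Calml4, Sri, Pdcd6 and Slc8a3. Higher were Efhd1 (1.40, adjusted p = 0.0200), Rcn3 (1.16, adjusted p = 0.0463), Atp2b4 (0.72, adjusted p = 0.0259) and Stim1 (0.85, adjusted p = 0.0388). Without male libraries 1 and 2 of both ganglia all 11 kept their direction, from -1.29 (Calml4) to 1.30 (Efhd1), with Pdcd6 the smallest at -0.13. The 8 libraries left, with 1 male library per ganglion, were also in the fit that picked these genes. The kept direction is therefore partly built in and is no separate test.

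The genes whose log2 CPM most resembled that of each buffer over the 12 libraries were sought among 14828 others, as a description. For Calb2 they were Sgk1, a serum- and glucocorticoid-regulated kinase (Pearson's r = 0.995), Lgi2 (0.958), Tmem163, a zinc transporter (0.953), Meis2, a homeobox transcription factor (0.946) and Glb1l2 (0.944). Each of these had a higher level in TG than in DRG without overlap, which likeness to Calb2 favours because Calb2 did not overlap either. With each group centred on its own mean, 0 of these 5 stayed among the 5 most similar genes. Sgk1 spanned a much smaller range than Calb2, 85.0 to 110.9 CPM in TG and 41.8 to 62.8 CPM in DRG, whereas Lgi2 had 90.9 to 156.5 and 16.2 to 39.7 CPM. With a rank correlation Sgk1 was again the most similar gene (0.986).

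For Calb1 the most similar genes were Narf (r = 0.990), P2rx6, a subunit of ATP-gated channels (0.956), Asah2, a neutral ceramidase (0.942), Ftsj1, a tRNA methyltransferase (0.940) and Wdr16 (0.935). They had exon lengths of 4806, 3995, 4682, 4760 and 2320 bases, beside 4846 for Calb1. Wdr16 was scarce, with means of 1.83 CPM in DRG and 1.81 CPM in TG. Narf followed Calb1 into its low DRG libraries, with a lowest value of 26.1 CPM and a highest DRG value of 72.1 CPM, and it stayed the most similar gene when each group was centred on its own mean (r = 0.983). For Pvalb the most similar genes were Cstb, a protease inhibitor (0.966), Nme1, a nucleoside diphosphate kinase (0.964), Lsmd1 (0.963), Nop10, a component of small nucleolar ribonucleoproteins (0.963) and Mrps14, a mitochondrial ribosomal protein (0.960). None of these was on the list of 6 proprioceptor genes, which is too short a list among 14828 genes for this to be informative. All 5 had higher means in DRG than in TG, such as 103.1 against 73.7 CPM for Cstb and 166.0 against 102.6 CPM for Nop10, and overlapped between the ganglia. Their exon lengths, in the order named, were 599, 3342, 890, 1109 and 3258 bases, beside 1041 for Pvalb.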

How the data were processed

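The authors removed ribosomal RNA from total RNA of the Percoll fractions and sequenced it as short reads. The submitters' processing notes name bcl2fastq, TopHat2, HTSeq and build mm9. The authors deposited unnormalized read counts by gene symbol. Each file ends in 5 summary lines, which were left out, and reads outside genes were 37.6% to 50.4% of each library. The annotation and strand setting of the counting are not given in the sources used here.

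GENCODE on mm9 gave the position, exon union and GC content of each gene, and matched 21627 genes (95.7%). Counts were fitted with edgeR 4.0.16 in R 4.3.3 (filterByExpr, TMM factors, quasi-likelihood F-test, Benjamini-Hochberg over all genes tested), in all 12 libraries for TG against DRG, for both ganglia together and for the interaction, and in 6 libraries for sex within a ganglion. Calls between ganglia needed an adjusted p under 0.05 and a fold above 2. CPM are TMM-scaled, log2 CPM has a prior count of 2, and RPKM is CPM per kilobase of exon. The fits were tested on simulated data. Intervals are 95% and floors of 3 counts cover counting error only.

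The 3 genes and the gene lists were chosen with earlier results of these data known. Named are these genes, each calcium or neuron class gene called between the ganglia, the 3 highest per length of each such list, the first markers of other cell types, and the 5 genes most like each buffer. A few genes that this rule names, and the results that need them, are not reported here. A few others were named after their values were seen, such as genes that passed the adjusted p alone. Alternatives were DESeq2 1.42.0, its size factors, no scaling factors, no filter, GC and length correction (a smooth per library, mgcv 1.9.3), a replicate block, and libraries left out.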

Additional observations from a re-analysis of the deposited data

How the results depend on the processing

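The log2 difference TG over DRG kept its sign in all 22 alternatives for each gene, at 3.83 to 4.34 for Calb2, 0.54 to 1.46 for Calb1 and -1.30 to -0.78 for Pvalb. The genes were picked on this contrast in the same libraries, so the kept sign is partly built in and is no separate test. Calls between the ganglia over all genes, 114 as reported, were 196 with DESeq2, 185 with a replicate block, 177 with GC and length correction and the block, 227 without female DRG 1 and female TG 3, 217 with the libraries numbered 1 and 2 only, and 5 without male libraries 1 and 2 (8 libraries). They ranged from 71 to 162 with 1 library left out, lowest without male DRG 2 and at 75 without female TG 1. The 6 calls in the calcium and neuron class lists became 2 with GC and length correction, 12 without female DRG 1 and female TG 3, 10 with libraries 1 and 2 only, 0 without male libraries 1 and 2, and 3 to 8 with 1 library left out.

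Sex differences, female over male, turned positive without male libraries 1 and 2 in TG (Calb2 0.28, Pvalb 0.32), in DRG (Calb2 0.63, Pvalb 0.42) and over both ganglia (Calb2 0.47, Pvalb 0.39). That of Pvalb in TG also did with GC and length correction (0.014, or 0.026 with the replicate block). They passed the threshold with the libraries numbered 1 and 2 only, which leaves 2 a group, in TG (Calb2 -1.25, Calb1 -1.09, Pvalb -0.80), in DRG (Calb1 -2.70) and over both ganglia (Calb2 -1.55, Calb1 -1.88, Pvalb -0.92). Calb1 passed in TG without female TG 3, also where female DRG 1 was left out with it (-0.92), and over both ganglia with DESeq2 (-1.08, adjusted p = 0.0162) or no filter on low counts (-1.10, adjusted p = 0.0131). With 1 library left out, the TG value of Calb1 ran between -0.95 and -0.54 and its DRG value between -2.67 and -0.96, and over both ganglia Calb2 from -1.14 to -0.70, Calb1 from -1.75 to -0.89 and Pvalb from -1.07 to -0.59. The interaction of Calb2 changed sign with GC and length correction (-0.093, or -0.077 with the block), without male libraries 1 and 2 (-0.38, and -0.14 for Pvalb) and in the range of -0.24 to 0.63 with 1 library left out. The cause of these changes was not tested.

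Without scaling factors the median sex difference of all genes moved to 0.16 in TG, 0.19 in DRG and 0.17 over both ganglia, and each gene kept its direction. No label links same-numbered libraries beyond their number. Their deviations correlated at -0.10 to 0.22, not above 0.1 in every pair of any pairing. Whether they share an animal or a batch was not tested, and male libraries 1 and 2 stood apart in short transcripts in both ganglia. For the sex difference over both ganglia the replicate block was the library number within a ganglion. It joins a female and a male library, so it does not account for TG and DRG libraries of the same animal. With this block the edgeR sex difference over both ganglia was -0.81 for Calb2 (adjusted p = 0.262), -1.34 for Calb1 (adjusted p = 0.0533) and -0.73 for Pvalb (adjusted p = 0.0711). Of the 5 genes most like each buffer, a rank correlation kept 1 for Calb2, 1 for Calb1 and 2 for Pvalb among its own 5, and centring on the groups kept 0, 1 and 0.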
